A study of Mus musculus with 605 samples.

Results

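The cells described here were sorted as hair follicle bulge stem cells (SCs) from wild-type mouse skin at postnatal day 30 (P30). They were split by their RNA for Krt15, the keratin most often used to mark the bulge. All came from 1 plate, which held 91 cells. A cell was kept with a total of at least 750000 TPM (transcript abundance corrected for gene length and scaled to a fixed sum per cell), at most 20% of it in mitochondrial genes, and 2000 to 7000 genes above 0, and 84 cells passed. Of these 84, 65 had Krt15 at 1 TPM or more and are called Krt15-positive, and 19 were below 1 TPM and are called Krt15-negative. The whole series holds 605 cells on 7 plates.

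The P30 mice were wild type for the nevus transgene and carried K14-H2B-GFP, a green nuclear reporter driven by the keratin 14 promoter. Per the study, follicles of dorsal skin are in anagen, the growth phase, at P30, and bulge cells were sorted as GFP+ CD34+ Pcad low. The plates set beside it here held bulge cells of P56 wild-type mice with the same reporter (92 cells, telogen, the resting phase) and of P56 Tyr-Nras Q61K mice with the reporter (94 cells), in which the tyrosinase promoter drives the oncogene in melanocytes. No label names a mouse, so each plate is 1 sample. There was therefore no test between the groups of cells, and SDs and ranges are over cells of 1 plate.

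The bulge is the part of the hair follicle's outer root sheath that holds its long-lived SCs. Its keratinocytes share the basal keratins Krt5 and Krt14. Krt15 is typical of resting bulge cells, whereas Krt17 and Krt6a are found in outer root sheath cells and the companion and inner layers, and Krt6a, Krt16 and Krt17 also come on in wounded or activated epidermis. Krt15, Krt14 and Krt17 lie in the same type I keratin cluster, on the minus strand of chromosome 11 (GRCm38, GENCODE M21 gene bounds): Krt15 at chr11:100131758-100135928, Krt14 at chr11:100203162-100207548 and Krt17 at chr11:100256217-100261029. Reads were 75 bases long, and no stretch of 75 bases in the annotated Krt15 or Krt17 transcripts occurred in another gene's transcripts. For Krt14, 5.71% of the stretches did, all shared with Krt16.

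Krt15 chose the groups, so its values are a description. In the 65 Krt15-positive cells it ran from 1.05 to 21632 TPM with a median of 7864 TPM. In the 19 Krt15-negative cells the highest value was 0.94 TPM, and 13 of the 19 were at exactly 0. The cells just inside the limit were at 1.05, 1.19, 1.48, 1.81, 18.4, 26.8, 52.03 and 95.04 TPM, and those just outside it were at 0.94, 0.82, 0.78, 0.37, 0.35 and 0.32 TPM. The limit therefore did not fall in a gap: the values were sparse between 1.81 and about 3000 TPM and dense above. Classes of Krt15 level, chosen after the values were seen, held 19 cells under 1 TPM, 8 cells from 1 to under 100 TPM, 10 cells from 100 to under 3000 TPM and 47 cells at 3000 TPM or more.

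**Figure D1:**
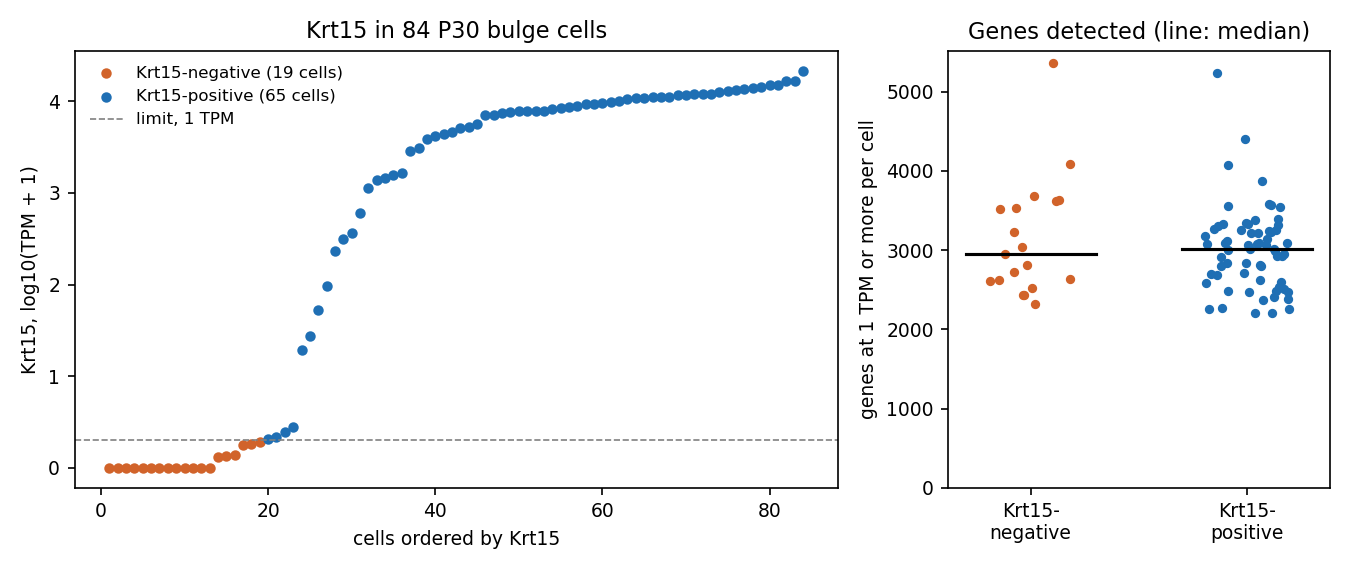
Left, Krt15 as log10(TPM + 1) in each of the 84 kept P30 cells, ordered by level, with the limit of 1 TPM dashed; right, genes at 1 TPM or more in each cell of both groups, with the median as a line. The 19 Krt15-negative cells lie at or near 0, 8 positive cells lie under 100 TPM, and the medians of genes detected are 2952 and 3009.

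Genes detected per cell differed little between the groups. Krt15-negative cells held 2323 to 5357 genes at 1 TPM or more with a median of 2952, and Krt15-positive cells 2208 to 5236 with a median of 3009. The share of mitochondrial TPM had medians of 8.15% and 8.54%, and the TPM total medians of 804447 and 810334, in the same order. Across the 84 cells, the Pearson r of Krt15 with genes detected was -0.15. The depth of each cell is unknown, because TPM does not keep it. By place on the plate, 8 of the 21 kept cells in columns 10 to 12 were Krt15-negative (38.1%, exact 95% interval 18.1 to 61.6%, counting error only), against 3 of 22, 5 of 21 and 3 of 20 in columns 1 to 3, 4 to 6 and 7 to 9. In columns 1 to 9 alone, with 52 positive and 11 negative cells, all 28 genes named by the size of their difference kept its direction. These genes were chosen on all 84 cells, most of which lie in these columns, so the check is not independent of the choice.

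As a check of the labels, the keratinocyte markers summed to a median of 19279 TPM in Krt15-positive and 20734 TPM in Krt15-negative cells. The set of markers with the highest mean was the keratinocyte or the interfollicular basal set in 63 of 65 positive and 17 of 19 negative cells. The other 2 negative cells stood apart: 1 had matrix and inner root sheath markers highest, with the marker sum at 92341 TPM, and 1 had fibroblast markers highest, with a sum of 22288 TPM and Krt14 at 0. The latter also had the highest Mt2, at 713 TPM, and the lowest Fabp5, at 94.04 TPM, of the negative cells. The other 2 positive cells stood apart as well. In 1, upper follicle and infundibulum markers were highest, with Krt5 at 0 and Ly6d at its highest, 20572 TPM. In 1, differentiating keratinocyte markers were highest, with Krt14 and Krt5 at 0. Melanocyte markers summed to at most 92.9 TPM in positive and 64.5 TPM in negative cells, with 4 of 8 genes at 0 in every cell of each group. Myeloid markers reached 1205 TPM in positive and 229 TPM in negative cells, with medians of 0. Cd34, whose protein was a sort marker, was detected in 8 of 65 positive and 2 of 19 negative cells, at 19.8 to 577 TPM. The 2 negative cells include the cell with fibroblast markers highest, at 176 TPM of Cd34. The difference of Cd34 was 0.01, so RNA of this sort marker neither marked most cells nor separated the groups.

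Differences below are Krt15-positive minus Krt15-negative means of log2(scaled TPM + 1), where each cell's TPM is scaled to sum to 10000. The scale understates changes of low genes. Of 9151 genes other than Krt15 that were detected (1 TPM or more) in 10% or more of the cells of one or the other group, 65 were higher in Krt15-positive cells by 1 or more, which is 0.710% of them. Another 44 genes, 0.481%, were higher in Krt15-negative cells by 1 or more. The median difference of all 9151 genes was -0.00, and 4411 of them, 48.2%, were above 0, so most genes differed little on this scale. These counts grew on scales that weight low values more and shrank to 25 and 28 when positive cells were matched to negative cells on immediate early genes, as given with those genes.

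The marker genes of the split came first. Krt14, the basal keratin that also drives the sort reporter, was at 0 to 26190 TPM with a median of 9002 TPM in Krt15-positive cells and at 0 to 18703 TPM with a median of 7372 TPM in Krt15-negative cells. It was detected in 59 of 65 and 17 of 19 cells, and its difference of 0.33 was small beside SDs over cells of 2.44 and 2.55. Krt5, its partner, had medians of 1945 and 1227 TPM and a difference of 0.61. The absence of Krt15 thus went with no comparable loss of the other basal keratins.

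Krt17 had nearly the opposite distribution to Krt15. It was at 0 to 25781 TPM with a median of 286 TPM in Krt15-positive cells, and at 0 to 27476 TPM with a median of 9378 TPM in Krt15-negative cells. It was at 1000 TPM or more in 17 of the 19 Krt15-negative cells. The difference was -3.59, with SDs of 2.75 and 2.30 over cells. Krt17 exceeded Krt15 in 17 of 19 negative and 18 of 65 positive cells. The ranges overlapped, because the positive cells with little Krt15 had as much Krt17 as the negative ones: the median was 8496 TPM in the 8 cells from 1 to under 100 TPM of Krt15, 5657 TPM in the 10 cells from 100 to under 3000 TPM, and 6.48 TPM in the 47 cells above. In all, 11 of 84 cells had both keratins at 1000 TPM or more, 42 had Krt15 alone, 27 had Krt17 alone and 4 had neither.

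**Figure D2:**
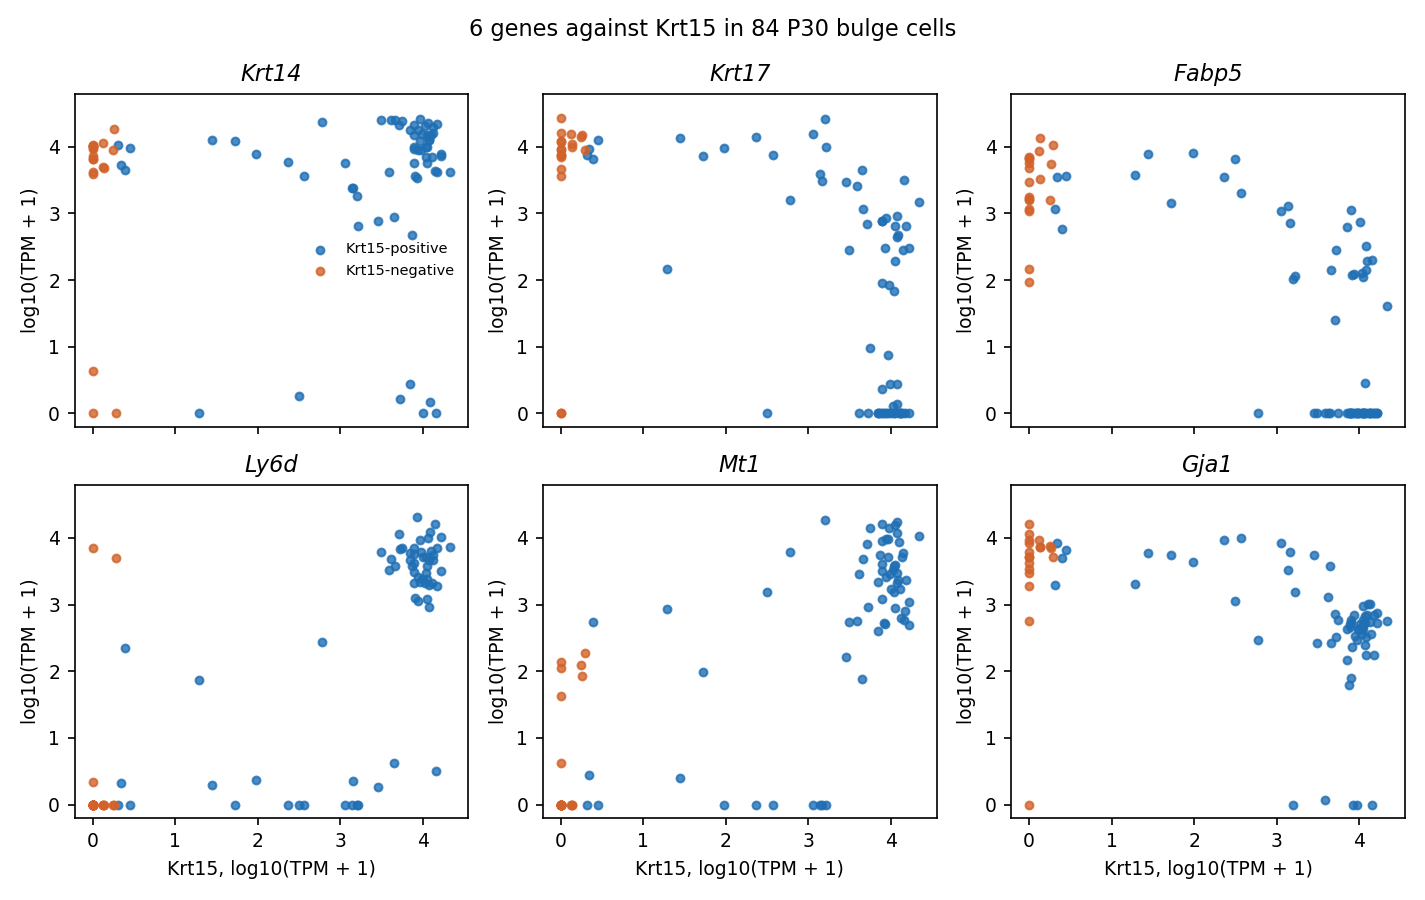
Krt14, Krt17, Fabp5, Ly6d, Mt1 and Gja1 against Krt15, each as log10(TPM + 1), in the 84 P30 cells, coloured by Krt15 group. Krt14 is high on both sides, Krt17, Fabp5 and Gja1 are highest at low Krt15, and Ly6d and Mt1 are highest among cells with Krt15 at 3000 TPM or more.

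The other keratins were fewer and more scattered. Krt6a, a keratin of the inner bulge and companion layer, was detected in 10 of 19 Krt15-negative cells, at up to 7627 TPM, and in 9 of 65 positive cells, at up to 4290 TPM, with a difference of -1.82. Of its 75-base stretches, 38.6% also occur in other genes, mostly in Krt6b, so reads of these paralogs may have been split between them. Krt6b was detected in 9 of 19 and 4 of 65 cells, and its difference was -0.27. Krt16 went the other way, with detection in 24 of 65 positive and 1 of 19 negative cells and a difference of 0.78. Krt80 was detected in 45 of 65 positive and 0 of 19 negative cells, where counting error leaves room for up to 15.8%, and its difference was 0.53. Of the 10 keratins that passed the 10% filter, 5 were higher and 5 lower, with a median of 0.00.

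Among the genes higher in Krt15-negative cells, Fabp5, an epidermal fatty acid carrier, led. It was at 94.04 to 13581 TPM with a median of 3238 TPM in Krt15-negative cells, all 19 of which had it. In Krt15-positive cells it was at 0 to 7981 TPM with a median of 0 and was detected in 32 of 65. The difference was -3.62, and 3 negative cells lay above every positive cell. A further 3 lipid and redox genes went the same way. Dbi, an acyl-CoA binding protein, had medians of 686 TPM in positive and 4389 TPM in negative cells and a difference of -2.27. Insig2, which restrains sterol synthesis, had medians of 66.4 and 1140 TPM and a difference of -2.20. Mgst1, a membrane glutathione transferase also abundant in sebaceous cells, was detected in 21 of 65 and 17 of 19 cells, with a difference of -2.26. The other defining sebaceous markers gave no such pattern: only Scd1 of the other 7 passed the filter, with a difference of 0.14. The sterol and fatty acid synthesis genes as a group did not share the direction of Insig2, since 11 of 15 were above 0, with a median of 0.09.

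Gap junction genes were not uniform. Gja1, which encodes connexin 43, was at 0 to 9906 TPM with a median of 536 TPM in Krt15-positive cells and at 0 to 16283 TPM with a median of 6150 TPM in Krt15-negative cells, and its difference was -2.50. Gjb2, which encodes connexin 26, was detected in 20 of 65 and 13 of 19 cells, and its difference was -1.73. Gjb6 (connexin 30) was at -0.51, while Gjb5 was at 0.25. No count or median of the family is given.

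The calcium-binding S100 proteins and the annexins were mixed in the same way. S100a6 was at 0 to 10236 TPM with a median of 833 TPM in positive cells and at 854 to 10469 TPM with a median of 4516 TPM in negative cells, a difference of -2.52. S100a1 was detected in 27 of 65 and 18 of 19 cells, with medians of 0 and 1014 TPM and a difference of -2.69. S100a16 was at -1.06. In contrast S100a10, the partner of annexin A2, had medians of 1836 TPM in positive and 483 TPM in negative cells and a difference of 1.70, and Anxa8 and Anxa1 were at 1.51 and 1.35. Of the 13 members described, 7 were above 0 and 6 below.

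Most genes of the actin cytoskeleton had lower means in Krt15-positive cells. Of 18 actin, myosin light chain, tropomyosin and thymosin genes, 14 were below 0 and 4 above, with a median of -0.27. The tropomyosins Tpm1 and Tpm2, which coat actin filaments, were at -1.89 and -1.39. Tpm1 was detected in all 19 Krt15-negative cells, at 89.9 to 2913 TPM with a median of 598 TPM, and in 50 of 65 positive cells with a median of 73.5 TPM. The actin-sequestering thymosin Tmsb10 was at -1.10. Actb and Actg1, the cytoplasmic actins themselves, were at 0.20 and 0.15. Of the junction genes, Ctnnb1, which encodes beta-catenin, was at -1.04 and Dsp, which encodes desmoplakin, at -0.94, whereas the median of all 14 desmosome and adherens junction genes was -0.07.

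The remaining genes named on this side were Sbsn, Sepp1 and Ctsd. Sbsn, which encodes suprabasin, a protein of suprabasal keratinocytes, was detected in 27 of 65 positive and 18 of 19 negative cells, with a difference of -2.12. Of the other differentiation markers, Calml3 was at -0.62, while Krt1, Krt10, Klk8 and Krtdap were at 0.23, 0.34, 0.43 and 0.56. Sepp1, which encodes the selenium carrier selenoprotein P, was at -2.11 with medians of 77.2 and 1538 TPM. Ctsd, the lysosomal protease cathepsin D, was at -1.92 with medians of 194 and 890 TPM. Of the 75-base stretches of Ctsd, 31.3% are also annotated in an overlapping gene model, Gm49369.

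Several follicle signalling genes and SC regulators had small or negative differences. Sox9, a transcription factor that specifies follicle SCs, was detected in 16 of 19 Krt15-negative cells with a median of 102 TPM and in 21 of 65 positive cells with a median of 0, and its difference was -0.78. Lhx2, another transcription factor of these SCs, was detected in 12 of 19 and 10 of 65 cells, with a difference of -0.23. The WNT and BMP antagonist Sostdc1 was detected in 14 of 19 and 16 of 65 cells, with a difference of -1.19, and the secreted hormone-like peptide gene Pthlh in 13 of 19 and 13 of 65 cells, with a difference of -1.42. Sostdc1 and Pthlh are also in the marker set of the hair germ, the progenitors below the bulge: 2 of the 5 markers of that set described were above 0 and 3 below, and its sum had medians of 16.01 TPM in positive and 729 TPM in negative cells and highest values of 5328 and 4652 TPM. Lef1 and Dkk4 of that set did not pass the filter, and the part of such cells was not tested. Per the study, the hair germ lacks CD34 and is high in Pcad, whereas the gate was CD34+ and Pcad low. How completely the gate removed hair germ cells was not tested. Tnc and Postn, extracellular matrix proteins, were at -0.71 and -0.74. Of the 19 SC regulators and markers that passed the filter, 8 were above 0 and 11 below, with a median of -0.02. Among those above 0, Aldh3a1, Itga6 and Ptn were at 0.70, 0.45 and 0.39.

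The pathway lists around these genes were close to the background of all genes. Of BMP targets, 2 of 6 were above 0 with a median of -0.03, but Id2 and Id3 had opposite differences of -0.55 and 0.92. Of Notch genes, 2 of 8 were above 0 with a median of -0.04, and Hes1, the target of Notch, was at -0.64. Of WNT targets, 4 of 6 were above 0 with a median of 0.06. Of hedgehog genes, 2 of 6 were above 0 with a median of -0.01. Of the MAPK feedback genes and targets, 4 of 8 were above 0 with a median of 0.02. No member of these lists was past a difference of 1.

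The study set outer bulge and inner bulge markers, citing earlier work, against data that include these cells. The genes it names are therefore not treated as independent evidence. All 5 outer bulge markers were below 0: Krt17 at -3.59, Tcf7l2 at -0.24, Lhx2 at -0.23, Col18a1 at -0.17 and Vdr at -0.00. The inner bulge markers split. Chit1, a chitinase, was detected in 33 of 65 positive cells, at up to 2076 TPM, and in 0 of 19 negative cells, and its difference was 1.31. Krt80 was also at 0 in every negative cell. Krt6a was higher in negative cells, as given above. Of the other members described, Krt75 was at -0.28 and Timp3 at -0.02. Of the study's quiescence markers, 4 of 10 passed the filter and none of these was lower in positive cells; the hemidesmosomal collagen Col17a1 was at 1.39, with the other 3 between 0.00 and 0.11.

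On the other side, the metallothioneins Mt1 and Mt2, small cysteine-rich proteins that bind zinc and copper, led the genes higher in Krt15-positive cells. Mt1 was at 0 to 18571 TPM with a median of 1694 TPM in positive cells and at 0 to 184 TPM with a median of 0 in negative cells. Of the 65 positive cells, 51 lay above the highest negative cell, and the difference was 3.73. Mt2 was at 0 to 21265 TPM with a median of 1044 TPM in positive cells and at 0 to 713 TPM with a median of 0 in negative cells, a difference of 3.36. Both genes were thus scarce throughout the Krt15-negative cells and absent from a share of the positive ones. Neither gene shares a stretch of 75 bases with another gene's transcripts.

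Mt1 and Mt2 are neighbours on the plus strand of chromosome 8 and are classic targets of the metal-responsive factor MTF1, which binds metal response elements. Because both were higher in Krt15-positive cells, the 250 bases before each start are shown from RefSeq (GRCm38.p6, plus strand), Mt1 from chr8:94178839-94179088 and Mt2 from chr8:94172368-94172617. Capitals mark matches on either strand to the element's core, searched as TGCACNC or TGCGCNC.
Mt1: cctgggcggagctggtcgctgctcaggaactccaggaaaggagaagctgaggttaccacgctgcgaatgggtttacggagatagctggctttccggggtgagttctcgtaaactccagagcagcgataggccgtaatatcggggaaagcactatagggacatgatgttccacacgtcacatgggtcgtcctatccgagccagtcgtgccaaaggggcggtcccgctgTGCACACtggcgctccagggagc
Mt2: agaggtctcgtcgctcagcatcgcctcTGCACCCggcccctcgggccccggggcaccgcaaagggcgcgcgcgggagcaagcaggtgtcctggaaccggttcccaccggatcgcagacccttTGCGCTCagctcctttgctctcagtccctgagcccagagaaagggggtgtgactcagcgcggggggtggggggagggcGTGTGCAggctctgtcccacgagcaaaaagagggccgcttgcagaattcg
The windows held 1 match for Mt1 and 3 for Mt2. Of 32851 mouse promoter windows of the same length, 21.4% held at least 1 match and 1.26% at least 3, so the single match of Mt1 is common. The matches are a description of the sequence and say nothing of binding in these cells. Elements outside these windows, or before another start of either gene, were not searched, so the counts are not those of the whole promoters.

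Ly6d and Ly6a, which encode small membrane-anchored surface proteins, had the same direction as the metallothioneins. Ly6d was at 0 to 20572 TPM with a median of 2602 TPM in Krt15-positive cells, 53 of which had it, and was detected in 3 of 19 Krt15-negative cells, a difference of 3.41. It followed the Krt15 classes closely. All 47 cells with Krt15 at 3000 TPM or more had Ly6d, 44 of them at 1000 TPM or more, whereas none of the 18 positive cells below 3000 TPM reached 1000 TPM. Of the negative cells, 2 exceeded 1000 TPM, at 4984 and 7041 TPM. Ly6a, which encodes Sca-1, was detected in 41 of 65 and 1 of 19 cells, with a difference of 1.96; 6.33% of its stretches are shared, mostly with Ly6c1. Ly6d and Krt17 were both at 1000 TPM or more in 4 of 84 cells, while 42 had Ly6d alone, 34 had Krt17 alone and 4 had neither. Ly6d, Ly6a and Col17a1 are also in the marker set of interfollicular basal keratinocytes. These cells also carry the keratin 14 reporter but lack CD34, which the gate required. Cd34 RNA was detected in 8 of 65 positive and 2 of 19 negative cells, and how completely the gate removed such cells was not tested. All 7 markers of that set were above 0, with a median of 0.61. The 3 past a difference of 1 were Ly6d, Ly6a and Col17a1 themselves, so the set repeats those genes and is not further evidence. The set was the highest in 19 of 65 positive and 0 of 19 negative cells. Its sum ran from 168 to 40795 TPM with a median of 15428 TPM in positive cells and from 4225 to 22014 TPM with a median of 9506 TPM in negative cells. The part of such cells in the result was not tested.

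Serpinb2, Clca3a2, Fam25c and Calm5 were detected in a smaller share of Krt15-negative than of Krt15-positive cells. Serpinb2, a protease inhibitor, was at up to 30115 TPM in positive cells, with a median of 566 TPM, and at no more than 1.55 TPM in negative cells, a difference of 2.90. Clca3a2 was at a median of 490 TPM in positive cells and at most 1.04 TPM in negative cells, a difference of 2.57, though 13.3% of its stretches are shared with other genes, chiefly Clca3a1. Calm5, a calmodulin-like gene, was detected in 37 of 65 positive and 0 of 19 negative cells, again with an upper limit of 15.8%, and its difference was 2.04. Fam25c was detected in 54 of 65 and 4 of 19 cells, with a difference of 2.75. Serpinb2, with 8.998% of its stretches shared with Serpinb10, was detected in 45 of 65 positive cells, so it was missing from part of them too.

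The chemokine Ccl27a, made by keratinocytes to attract T cells, was at 0 to 13910 TPM with a median of 1269 TPM in positive cells and at 0 to 2390 TPM with a median of 0 in negative cells, a difference of 2.51. It has near-identical copies, and 33.3% of its stretches are shared, so its value is uncertain as to the copy. Fth1, the ferritin heavy chain that stores iron, was at 0 to 6741 TPM with a median of 2392 TPM in positive cells and at 0 to 2130 TPM with a median of 243 TPM in negative cells, a difference of 2.75, and 35 positive cells lay above all negative ones. The redox enzymes Gpx1 and Prdx6 were at 1.30 and 1.11, but of the 14 glutathione and redox genes 9 were above 0 and the median was 0.16.

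Genes of MHC class I, the molecules that show peptides to T cells, were also higher. Of 8 members, 7 were above 0 and 4 past a difference of 1, with a median of 0.85. H2-K1 was detected in all 84 cells, with medians of 1342 TPM in positive and 374 TPM in negative cells and a difference of 1.60. H2-D1 had medians of 1756 and 328 TPM and a difference of 1.57, and B2m, the common light chain, had medians of 4745 and 2251 TPM and a difference of 1.11. H2-Q7 was at 1.23, with 16.95% of its stretches shared with other class I genes. The antigen transporter Tap1 and tapasin (Tapbp) were at 0.05 and 0.18. Ifitm3, an interferon-induced antiviral membrane protein, was at 2.22, with detection in 51 of 65 and 2 of 19 cells, but of the 6 interferon response genes described the other 5 lay between -0.06 and 0.16, with 3 above 0 and 3 below. MHC class II genes were near 0, with Cd74 at 0.17.

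**Figure D3:**
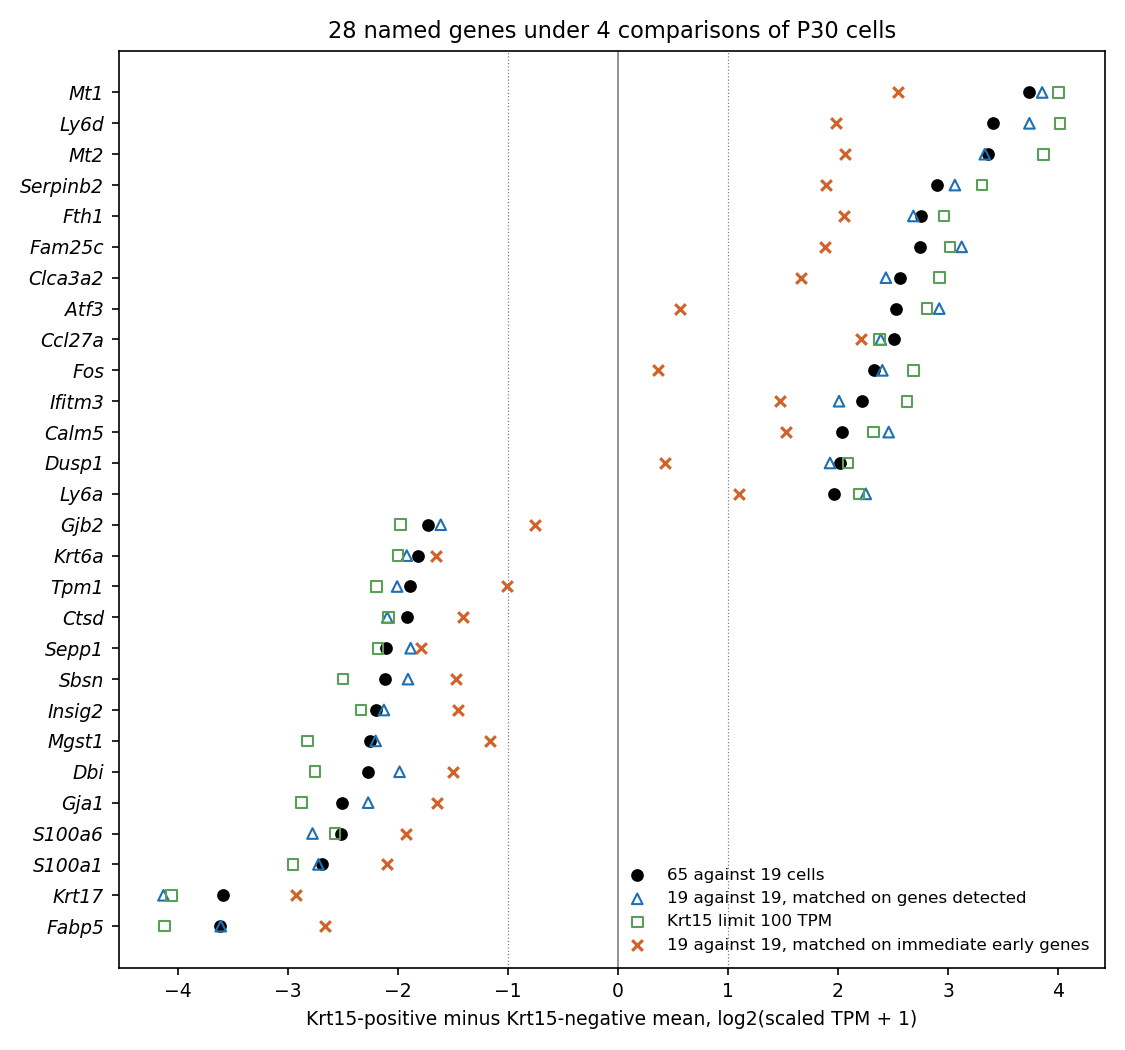
Difference of the Krt15-positive and Krt15-negative means, log2(scaled TPM + 1), for 28 named genes: all 65 against 19 cells (filled circles), 19 positive cells matched to the negative cells on genes detected (triangles), a Krt15 limit of 100 TPM (squares), and 19 positive cells matched on immediate early genes (crosses). The first 3 lie close together, and the crosses lie nearer to 0, most of all for Atf3, Fos and Dusp1. These genes are in the list matched on.

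Immediate early genes, transcription factors and phosphatases that switch on within minutes of a stimulus, tissue dissociation included, were higher in Krt15-positive cells. Of 17, 15 were above 0, 7 past a difference of 1, and the median was 0.52. Fos was at 0 to 14412 TPM with a median of 2329 TPM in positive cells and at 0 to 12730 TPM with a median of 53.2 TPM in negative cells, a difference of 2.33. The negative cell at 12730 TPM is the one with fibroblast markers highest. Atf3 was detected in 53 of 65 and 5 of 19 cells, a difference of 2.52, and Dusp1 in 56 of 65 and 10 of 19 cells, a difference of 2.02. Zfp36, Nr4a1, Fosl1 and Ier3 were at 1.499, 1.37, 1.07 and 1.03. Egr1 and Egr2 were the exceptions, at -0.07 and -0.51, and the ranges of the groups overlapped for Fos, Atf3 and Dusp1.

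Because the mean level of the immediate early genes differed between the groups, with medians of 1.77 in positive and 0.45 in negative cells on the log2 scale, a comparison added after the data were seen matched each negative cell to the nearest unused positive cell on that mean. The 19 matched cells had a median of 0.72. Of 9343 genes then described, 25 were higher by 1 or more in positive and 28 in negative cells. Among these, 23 and 25 were shared with the 65 and 44 above. The 28 named genes, which were chosen on cells that include these, all kept their direction. Krt17 was at -2.92, Fabp5 at -2.66, Mt1 at 2.54 and Ly6d at 1.98. Atf3, Fos and Dusp1 were at 0.56, 0.36 and 0.43. They are in the list matched on, so the match itself moves them toward 0. The matched cells also had less Krt15 than the other positive cells, with a median of 4150 TPM against 7864 TPM for all, so the level of Krt15 and that of immediate early genes cannot be told apart here. Matching on genes detected instead gave medians of 2956 and 2952 genes. Of 9618 genes then described, 74 and 53 were higher by 1 or more in positive and negative cells. Among these, 58 and 40 were shared with the 65 and 44 above. Krt17 was at -4.13, Fabp5 at -3.61, Mt1 at 3.86 and Ly6d at 3.74.

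Most members of some lists of abundant genes had small positive differences. All 20 cytosolic ribosomal protein genes were above 0, from 0.20 to 0.76, with a median of 0.45. Of 14 glycolysis genes 13 were above 0, with a median of 0.18, or 0.03 after matching on immediate early genes, and Ldha, the lactate dehydrogenase, was at 1.07. Of 16 genes used as a control of detection 13 were above 0, with a median of 0.24. The control genes include Fth1 and B2m, named above, while Gapdh and Actb were at 0.15 and 0.20. Heat shock genes were at a median of -0.09, with 5 of 11 above 0, and Dnajb1 at 1.23. The sign of that median depended on the setting, and it was 0.23 after matching on genes detected.

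Adhesion to the basement membrane differed through 1 gene chiefly. Col17a1, a transmembrane collagen of hemidesmosomes, was detected in 51 of 65 positive cells with a median of 181 TPM and in 1 of 19 negative cells, at 418 TPM, a difference of 1.39. Itga6 and Lamb3 were at 0.45 and 0.61. Of 13 hemidesmosome and basement membrane adhesion genes 10 were above 0, with a median of 0.16. Tgfbi, an extracellular adhesion protein induced by TGF-beta, was detected in 44 of 65 positive cells and in none of the negative cells at 1 TPM or more, a difference of 1.36, while the rest of the TGF-beta list lay between -0.10 and 0.04. Gata3, an epidermal and inner root sheath transcription factor, was at 1.09. It was the only member above 0 of the 9 described in the matrix and inner root sheath marker set, whose median was -0.08.

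**Figure D4:**
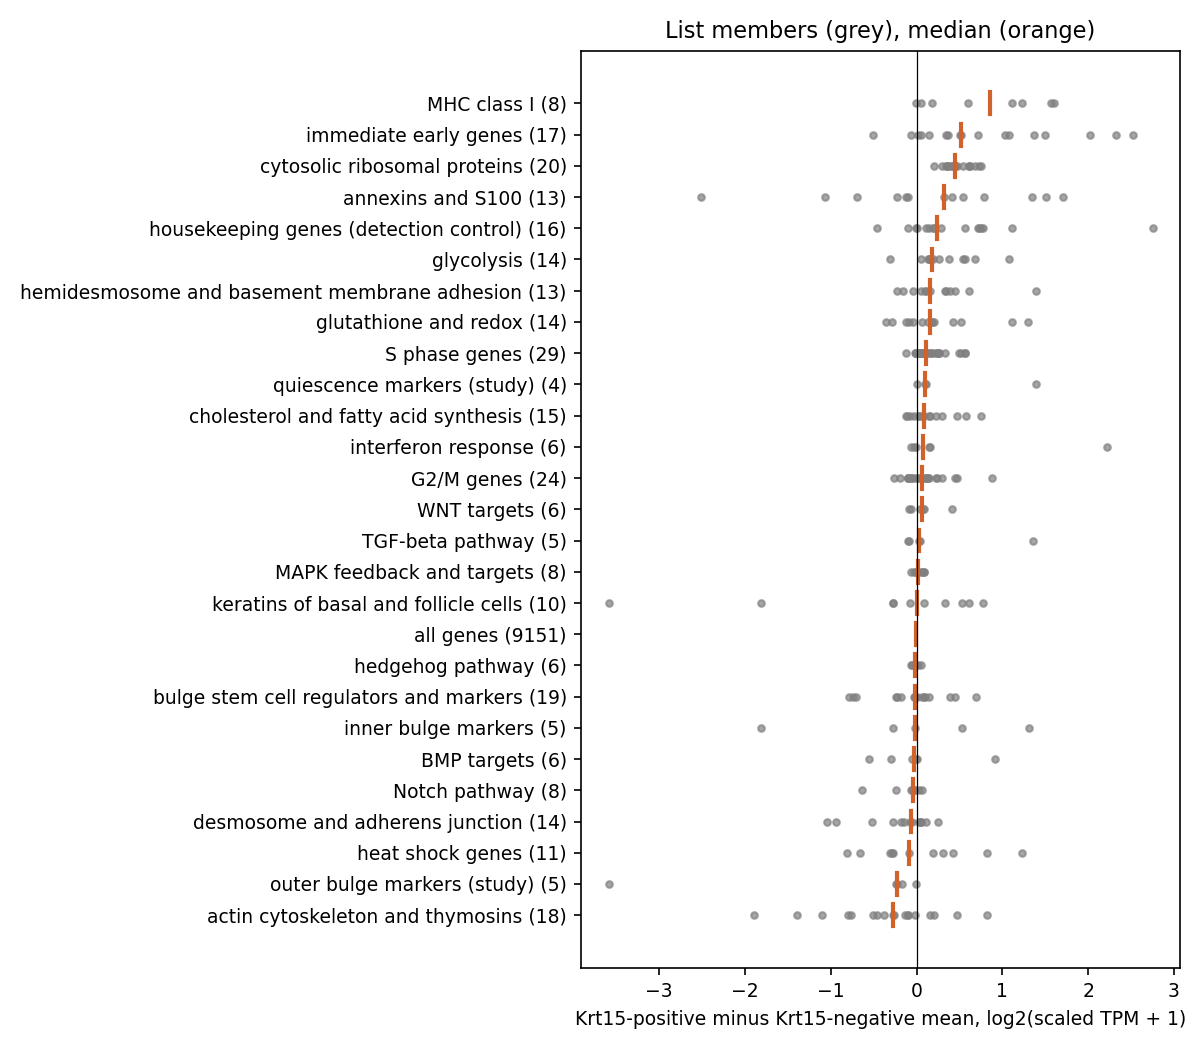
Differences of the members of each gene list (grey points, log2 scale, number described in brackets) and the median (orange line), Krt15-positive minus Krt15-negative P30 cells. MHC class I, immediate early and ribosomal protein genes have the highest medians, at 0.85, 0.52 and 0.45, and actin genes the lowest, at -0.27, against -0.00 for all genes.

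Cell cycle genes were detected in small numbers in most cells of both groups. At least 20 of 42 S phase genes were detected in 4 of 65 positive and 1 of 19 negative cells, with medians of 6 and 4 genes a cell. For the 54 G2/M genes, the same number was reached in 3 of 65 positive and 0 of 19 negative cells. Of the S phase genes described, 24 of 29 were above 0, but no difference reached 1 and the median was 0.11, with Nasp, Pcna and Mcm6 between 0.51 and 0.56. G2/M genes had a median of 0.07, with 15 of 24 above 0.

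Over the 84 cells, the genes most like Krt15 were sought among 4044 genes detected in at least 25% of cells. The values are descriptions, since the cells share a plate and Krt15 has a wide range. The highest Pearson r on the log scale were those of Fth1 and Col17a1, both 0.80, then Fam25c, Ly6d, Mt1, Clca3a2, Tgfbi and Gpx1, from 0.78 to 0.74. The lowest were Fabp5 and S100a1, both -0.84, then Mgst1 at -0.81, Bpifc at -0.75 and Tmsb10 at -0.75. Krt17 was at -0.73 and Krt14 at 0.11. Taking out genes detected as a linear term moved these 13 values by at most 0.0147. Within the 65 Krt15-positive cells alone, which include 8 cells with Krt15 from 1 to under 100 TPM and are among the cells these genes were chosen on, r was 0.77 for Ly6d, 0.74 for Col17a1, 0.71 for Fth1, -0.80 for Fabp5, -0.83 for Mgst1 and -0.67 for Krt17. Spearman's rho was lower there, at 0.58 for Ly6d and -0.55 for Krt17.

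The 8 positive cells from 1 to under 100 TPM resembled the negative ones in the genes above. Their medians were 3623 TPM for Fabp5, 5337 TPM for Gja1, 1.64 TPM for Mt1 and 1.04 TPM for Ly6d, beside 3238, 6150, 0 and 0 TPM in the 19 negative cells. The 10 cells from 100 to under 3000 TPM had 901, 4428, 0 and 0 TPM, and the 47 above had 0, 454, 2892 and 4685 TPM. A limit of 100 TPM in place of 1 put 57 cells against 27 and gave larger differences for Krt17 (-4.06), Fabp5 (-4.12), Ly6d (4.02) and Mt1 (4.01).

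The same split could not be repeated on the other bulge plates. Krt15 was at 1 TPM or more in 82 of 83 kept cells of P56 wild-type mice and in 85 of 89 kept cells of P56 Tyr-Nras Q61K mice, which left 1 and 4 Krt15-negative cells, against 19 of 84 at P30. Genes detected per cell were more numerous there, with medians of 4096 and 4249 against 3008, and age cannot be told apart from plate. In the mutant plate, the 4 negative cells and 85 positive cells are set beside P30 without a comparison. Krt17 was at -3.82 there and -3.59 at P30, Mt1 at 3.56 and 3.73, Mt2 at 2.71 and 3.36, and S100a6 at -2.13 and -2.52. Ly6d was at -0.59 and 3.41, Gja1 at 0.44 and -2.50, Krt14 at -2.61 and 0.33 and Col17a1 at -0.86 and 1.39. Across all cells of a plate, the r of Ly6d with Krt15 was 0.24 in P56 wild-type and 0.16 in mutant cells, and that of Krt17 -0.17 and -0.20, beside 0.78 and -0.73 at P30. In P56 wild-type cells it was 0.57 for Col17a1 and 0.54 for Tgfbi, beside 0.80 and 0.76 at P30, and 0.63 for Krt5 and 0.34 for Krt14, beside 0.31 and 0.11.

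In cells that should lack Krt15, a TPM of 1 or more was found in 4 of 81 wild-type and 17 of 84 mutant melanocytes (4.94% and 20.2%), and among myeloid cells in 0 of 73 from wild-type and 2 of 72 from mutant skin, at medians of 2204 to 2815 genes detected a cell. The share at P30 was 77.4% (exact 95% interval 66.95 to 85.8%) at 3008 genes. Values from 1 to under 100 TPM, which put 8 of the P30 cells into the positive group, were found in 13 mutant melanocytes and 2 mutant myeloid cells as well. Values of 1000 TPM or more were found in 53 of the 84 P30 cells, 1 wild-type melanocyte and 2 mutant melanocytes.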

How the data were processed

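Single cells of mouse dorsal skin had been caught in microfluidic chambers and sequenced as paired 75-base reads, and the authors left out chambers seen to hold no cell or several. The deposited values are TPM, transcript abundances scaled to a fixed sum per cell, which the authors made by aligning reads with STAR (2.4.2 in the submitters' processing notes) to GRCm38 (mm10) with a GENCODE annotation and quantifying with RSEM. The methods name FPKM, but the tables and labels name TPM. TPM keeps no read depth, so genes detected per cell stood in its place. A single deposited column (1) matched no label and was not used.

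Gene symbols with several identifiers were averaged. Cells were kept by the limits the study states, given in the report. For melanocytes and myeloid cells the limits on total and mitochondrial share were the same, with 1000 genes above 0 as the only limit on genes. No doublet caller was run. Each cell's TPM was scaled to 10000 and transformed as log2(value + 1). A gene was detected at 1 TPM or more. Genes were described when detected in 10% or more of the cells of one or the other group, and lists with 4 or more such members. The genes named were, in each direction, the 14 with the largest difference, taken from those detected in 25% or more of one group's cells. Krt15, pseudogenes, predicted genes and genes that are mitochondrial, sex-linked or of the ribosome were left out, and Krt14, Krt17 and list members were added. Some genes and 1 list that rests on them are not reported here. Genes most like Krt15 were the 8 with the highest and the 5 with the lowest r. The cells and lists were chosen with earlier results of these data known. Intervals of shares are Clopper-Pearson (exact, 95%), with 3 cells of the total as the upper limit where none was found; they cover counting error only. With 1 plate there was no test, and cells gave no p-value.

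Of the alternatives, 13 were fixed at the start and 3 were added after the data were seen: leaving out cells with Krt15 from 1 to under 100 TPM, matching on immediate early genes, and plate columns 1 to 9 alone. Classes of Krt15 level were also chosen after the values were seen. The calculation of differences was checked on simulated cells. Tables were handled with pandas 2.3.3 and NumPy 2.4.6 under Python 3.11.15, intervals came from SciPy 1.17.1, and figures from matplotlib 3.10.9.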

Additional observations from a re-analysis of the deposited data

Results flagged for a closer look

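Of the 28 named genes, 7 had a difference in the mutant P56 plate, where only 4 cells were Krt15-negative, of opposite direction to that at P30, and for 3 of them it was at least 0.5 in size. Ly6d was at 3.41 at P30 and -0.59 in mutant cells, Tpm1 at -1.89 and 1.15, and Gjb2 at -1.73 and 0.89. The other 4 were Gja1 at 0.44, Ifitm3 at -0.25, Fth1 at -0.12 and Fam25c at -0.01 in mutant cells. No share over all genes is given beside this count, and the 28 genes were chosen for large differences at P30. The count is therefore not read as high or low. Each plate is 1 sample, and the difference between plates was not tested. Ly6d had a median of 0 TPM in mutant Krt15-positive cells, and Gjb2 a median of 1454 TPM in mutant Krt15-positive and 695 TPM in mutant Krt15-negative cells.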

How the results depend on the processing

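No paired analysis was possible because all Krt15-positive and Krt15-negative cells came from 1 plate, no replicate numbers are shared, and no test was made. The number of genes higher by 1 or more, 65 in Krt15-positive and 44 in Krt15-negative cells, became 936 and 1050 on log2(TPM + 1) without scaling and 354 and 331 with a pseudocount of 0.1, since the same step of 1 is smaller relative to low values on those scales. It became 25 and 28 after matching on immediate early genes (chosen after seeing the data); the cause was not tested. Without the filter on cells, with 70 and 21 cells, the count in Krt15-negative cells was 29, while that in positive cells was 60; the cause was not tested. Under the other 12 alternatives both counts stayed within 1.5 times, from 57 to 93 and from 33 to 53. None of the 28 named genes, nor Krt14, changed direction under any of the 16 alternatives. Of 464 such values, 394 were within 1.5 times of the value given, or within 0.1 of it. The 28 genes were chosen for large differences in these same cells, which the alternatives reuse. That they kept a direction is therefore little evidence. The alternatives with genes in at least 25% of cells and with no filter on genes cannot change the difference of a gene. Their agreement for named genes was fixed in advance. Of 405 values of list medians, 39 changed sign. Of these, 38 belonged to medians under 0.1 in size, among them that of inner bulge markers, from -0.02 to 0.34 in rows A to D, and that of heat shock genes, from -0.09 to 0.29 there. The other was that of immediate early genes, at -0.0393 after matching on those genes. Limits are set by 19 Krt15-negative cells, by 1 plate, and by the lack of read depth.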

Other observations

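Of the 10 kept P30 cells in which Cd34 RNA was detected, 8 were Krt15-positive and 2 Krt15-negative. The 2 negative cells include the cell with fibroblast markers highest, at 176 TPM of Cd34. Krt15 of the 10 cells ran from 0 to 14467 TPM with a median of 2260 TPM, and 8 of the 10 had Ly6d below 10 TPM.

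The 2 Krt15-negative cells with Ly6d above 1000 TPM both had little Krt14, at 0 and 3.32 TPM, and held 5357 and 4080 genes at 1 TPM or more, the 2 highest numbers among the 19 Krt15-negative cells. The cell with Krt14 at 3.32 TPM is the one with matrix and inner root sheath markers highest, at a sum of 92341 TPM, and its Ly6d was at 7041 TPM.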
